A study of Glycine max with 42 samples.

Results

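The 6 genes described here are soybean reference genes, used in quantitative PCR as a yardstick for other transcripts: ACT11 (Glyma.18G290800), CYP2 (Glyma.12G024700), ELF1B (Glyma.02G276600), UKN1, also called CONS4 (Glyma.12G020500), SKIP16, also called CONS6 (Glyma.12G051100), and CONS7 (Glyma.03G137100). The rule that names them rests on gene IDs and uses no value measured in these leaves. All 6 were listed in both expression tables, of 38177 genes in that of Williams 82 and 37403 in that of T295H, and all 6 passed the filter on low values in both.

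A reference gene serves as the denominator when the amount of another transcript is expressed relative to it, so any change in the reference enters the result with its sign turned round. Such genes are mostly housekeeping genes, whose products every cell needs, and a common practice is to test several candidates in the tissue at hand before using any. Leaf ageing is a demanding setting for them, because in a senescing leaf the photosynthetic machinery is dismantled, nitrogen is exported and transcription shifts widely. ACT11 encodes an actin, a subunit of the cytoskeleton. CYP2 encodes a cyclophilin, a peptidyl-prolyl isomerase that helps proteins to fold. ELF1B encodes the beta subunit of translation elongation factor 1, which reloads the factor that brings aminoacyl-tRNA to the ribosome. SKIP16 is named as a protein that interacts with SKP1, the adaptor of F-box ubiquitin ligases. UKN1 was named for an unknown product, and CONS4, CONS6 and CONS7 belong to a set of soybean genes put forward for their constant expression.

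RNA from trifoliate leaves of soybean (Glycine max) was sequenced in 42 libraries, 3 for each of 14 groups. The cultivar Williams 82 gave depodded and control leaves at days 45, 54, 64 and 76 after planting, and an initial group at day 38, at the flowering stage R2. Line T295H gave sterile and control leaves at days 35 and 63, and an initial group at day 28, also at R2. Pods were taken off in the depodded plants and the sink was limited genetically in the sterile ones. The labels name neither the allele behind the sterility nor separate plants, and the initial groups are not labelled as control, depodded or sterile. Values are the authors' normalised counts, given as mean ± SD over n = 3 libraries, and the lines were normalised separately, so levels are compared only within a line. No sequence length was at hand, so levels are not compared between genes either. In leaf RNA, fewer cells of a type and less RNA per cell cannot be told apart.

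Library totals ran from 6663477 to 13166094 recovered counts in Williams 82 and from 5471456 to 11877733 in T295H. T295H initial replicate 2 stood apart: it was the shallowest library, and its 10 most abundant genes took 41.3% of its counts, against 4.22% to 17.8% in the other 41 libraries of the series. For the late depodded groups the titles go against the time labels. Depodded libraries labelled day 64 are titled as sampling 5, the number of the day 76 controls, and depodded libraries labelled day 76 as sampling 4, the number of the day 64 controls. The label was followed, these groups are called the depodded leaves labelled day 64 and labelled day 76, and the values by title number stand beside each result they touch. Without annotation of the gene IDs, the leaf label was not checked against marker genes.

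Over all libraries of a line, CONS7 was the steadiest of the 6 in both lines, although in Williams 82 UKN1 took that place (0.36, against 0.44 for CONS7) where libraries were scaled to their totals. ACT11 was the least steady in Williams 82 under either scaling. The SD of log2(normalised count + 1) over the 27 Williams 82 libraries was 0.33 for CONS7, 0.40 for UKN1, 0.45 for ELF1B, 0.52 for SKIP16, 0.60 for CYP2 and 1.05 for ACT11. Over the 15 T295H libraries it was 0.20 for CONS7, 0.22 for SKIP16, 0.25 for UKN1, 0.44 for ACT11, 0.53 for CYP2 and 0.56 for ELF1B. Scaled to library totals, SKIP16 had an SD of 0.46 there, behind CONS7 (0.30) and UKN1 (0.33). That SD includes T295H initial replicate 2, the library that stood apart, where SKIP16 took its smallest share of a T295H library total. It had 76 of 5471456 recovered counts there, against 304 of 9271355 and 330 of 9992702 in initial replicates 1 and 3. The SD on library totals was not computed without that library. Set against the other tested genes, these ranks were uneven. In Williams 82, 6.55% of 29208 tested genes had a smaller SD than CONS7, 12.5% than UKN1, 18.9% than ELF1B, 26.9% than SKIP16, 36.2% than CYP2 and 73.2% than ACT11. In T295H, 1.44% of 29370 tested genes were steadier than CONS7, 2.49% than SKIP16, 4.63% than UKN1, 25.3% than ACT11, 35.8% than CYP2 and 39.9% than ELF1B. ACT11 alone of the 6 had a larger SD than the median tested gene of its table, and in Williams 82 only, where that median was 0.73.

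Counting adds more to the SD of a gene with few counts, so each was also ranked among genes whose mean lay within 2-fold of its own. ACT11 in Williams 82 was then less steady than 74.6% of 10644 genes, SKIP16 than 41.6% of 7715 and CONS7 than 11.6% of 9718. In T295H, ELF1B was less steady than 49.3% of 11516 such genes, SKIP16 than 6.17% of 6991 and CONS7 than 2.77% of 9132. CYP2 was less steady than 28.5% of 452 such genes in Williams 82 and 19.3% of 259 in T295H. Both shares were below its shares among all tested genes, 36.2% and 35.8%. For UKN1 they were 23.6% of 3996 in Williams 82 and 10.8% of 4461 in T295H. The remaining ranks were 16.8% of 10899 for ELF1B in Williams 82 and 30.4% of 11540 for ACT11 in T295H. ACT11 and ELF1B were the most thinly counted members. In single Williams 82 libraries ACT11 rested on 4 to 90 pairs of counts and ELF1B on 12 to 69, and counting alone would give SDs of about 0.37 and 0.28 on the log2 scale. The pooled SD within groups was 0.58 for ACT11 and 0.28 for ELF1B there, and 0.16 for SKIP16, so SKIP16 was tight within groups and differed mainly between them.

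**Figure D1:**
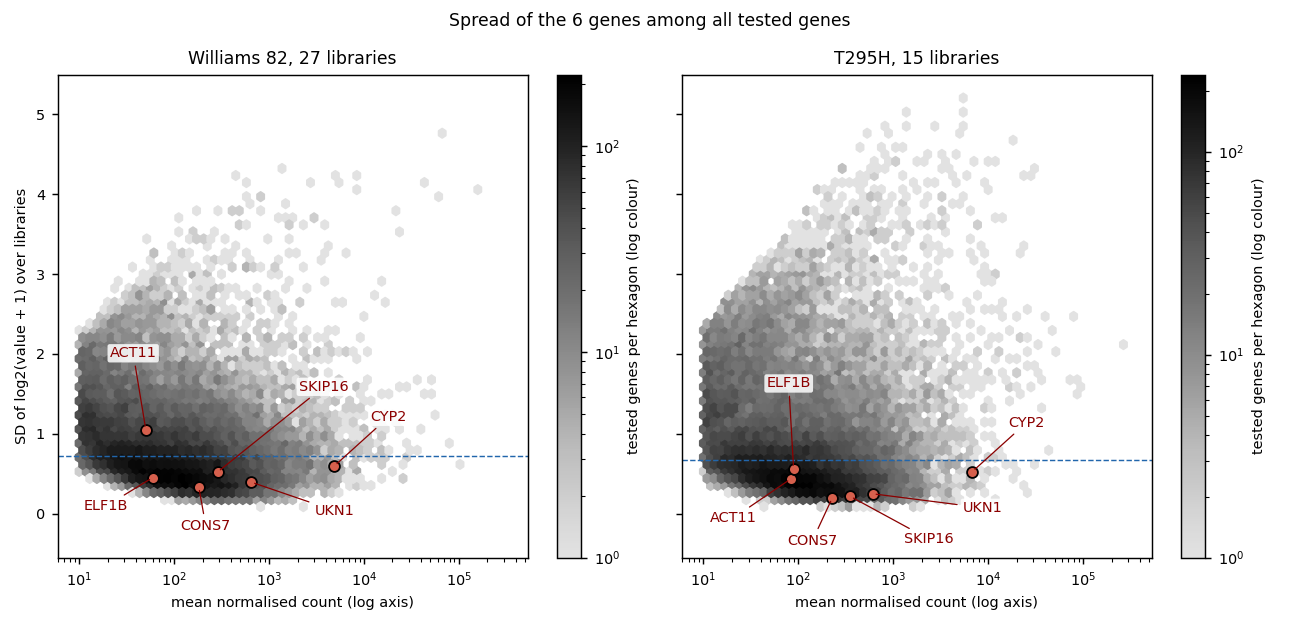
Each hexagon counts tested genes by their mean normalised count (log axis) and the SD of log2(value + 1) over all libraries of the line. Red points mark the 6 reference genes and the dashed line the median SD. ACT11 lies above that line in Williams 82 (1.05 against 0.73), and CONS7 lies lowest of the 6 in both lines.

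Between the group means, ACT11 spanned the widest range of any member, 8.65-fold in Williams 82. In depodded leaves it stood at 13.8, 33.6 and 46.1 at day 45, at 83.9, 71.2 and 80.5 at day 54, at 47.9, 25.9 and 24.5 at the label of day 64 and at 148, 161 and 75.4 at the label of day 76. Controls held 15.7, 19.7 and 8.93 at day 45, 102, 44.5 and 36.8 at day 54, 40.4, 55.5 and 25.6 at day 64 and 17.3, 12.8 and 20.2 at day 76, and the initial leaves 71.4, 31.2 and 47.7. The lowest controls were thus those of days 45 and 76, and the highest library of either was below the lowest initial library. In the order of its 9 Williams 82 group means, from the depodded leaves labelled day 76 (128 ± 46.1) down to the controls of day 45 (14.8 ± 5.47), every group overlapped its neighbour. In T295H, ACT11 stood at 122, 96.6 and 93.2 in sterile leaves of day 35 and at 54.8, 101 and 95.6 in those of day 63, against 88.3, 75.4 and 77.2 and then 50.8, 57.2 and 47.4 in controls of these days. The initial leaves of T295H held 124, 70.8 and 94.7, and the controls of day 63 were the only group clear of its neighbour in the order.

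CYP2 varied 2.87-fold between group means in Williams 82 and 2.15-fold in T295H. It stood at 2366, 2088 and 4184 in depodded leaves of day 45, at 6605, 6645 and 5760.0 at day 54, at 5027, 3968 and 4095 at the label of day 64 and at 6073, 8199 and 5915 at the label of day 76. Controls had 3761, 4553 and 3064 at day 45, 10664, 8538 and 5561 at day 54, 6223, 4598 and 5326 at day 64 and 3419, 3469 and 3286 at day 76, and initial leaves 2965, 2138 and 3548. Every control library of days 54 and 64 was above every initial library, while those of day 76 overlapped them. In T295H, CYP2 was at 4401, 7533 and 10055 in sterile leaves of day 63, against 2830.1, 5399.7 and 4113 in controls of that day. These groups overlapped, and the spread among the sterile libraries of day 63 was the widest of CYP2 in T295H, with an SD of 2832.

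ELF1B was lowest in Williams 82 controls of day 45, with 35.4, 32.3 and 26.8, and every library of every other Williams 82 group was higher. Depodded leaves of that day held 50.5, 51.3 and 51.2, the tightest group of this gene. At the label of day 64, depodded leaves held 97.7, 72.2 and 73.5, against 40.4, 69.4 and 51.3 in controls. In T295H it was lowest in the older leaves: sterile leaves of day 63 held 70.9, 86.4 and 81.5, against 58.9, 30.3 and 43.9 in controls of day 63. Neither group overlapped the other, and both lay below every library of the 3 younger groups, whose means were 113 ± 6.12 in sterile leaves of day 35, 106 ± 11.7 in controls of day 35 and 103 ± 6.41 in initial leaves. Over the 15 T295H libraries its SD of 0.56 was 0.23 once the controls of day 63 were left out.

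UKN1 was at its lowest in the Williams 82 controls of days 54 and 64, where CYP2 and SKIP16 were above their initial levels. Its 3 control libraries held 573, 538 and 645 at day 45, 573, 462 and 397 at day 54, 391, 468 and 390.2 at day 64 and 721, 825 and 738 at day 76, against 1004, 720.3 and 811 in initial leaves. Controls of days 45, 54 and 64 were all below the initial libraries, and those of day 76 overlapped them. Depodded leaves labelled day 64 had 1133, 676 and 767 and those labelled day 76 had 662, 754 and 542. In T295H its group means stayed within 1.46-fold, from 713 ± 95 in sterile leaves of day 35 to 488 ± 51.7 in controls of day 63, and every group overlapped its neighbour in the order.

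SKIP16 split the Williams 82 groups into a high and a low set. The high libraries were 481, 530.0 and 375 in depodded leaves of day 54, 450.0, 472 and 441 in depodded leaves labelled day 76 and 439, 381 and 314 in controls of day 54. The next group down, the controls of day 64, held 266, 244 and 281, all below the lowest of these. Depodded leaves held 186, 168 and 215 at day 45 and 208, 215 and 188 at the label of day 64. Low values were also found in controls of day 45, with 244, 196 and 228, in controls of day 76, with 217, 242 and 190.4, and in initial leaves, with 187, 195 and 203. In T295H the same gene kept its group means within 1.27-fold, between 399 ± 16.1 in sterile leaves of day 35 and 314 ± 4.96 in controls of day 35.

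CONS7 had the narrowest range, 1.82-fold between group means in Williams 82 and 1.24-fold in T295H. Its Williams 82 controls held 120.0, 118 and 141 at day 45, 248, 194 and 210.5 at day 54, 179, 208 and 191 at day 64 and 286, 201 and 204 at day 76, against 127, 166 and 110.3 in initial leaves. Controls from day 54 on were thus all above the initial libraries. Depodded means were 162 ± 16.6 at day 45, 193 ± 28 at day 54, 189.7 ± 8.9 at the label of day 64 and 194 ± 45.7 at the label of day 76. In T295H, sterile leaves of day 63 held 208, 201 and 225, against 262, 259 and 263 in controls of day 63, and these groups did not overlap.

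**Figure D2:**
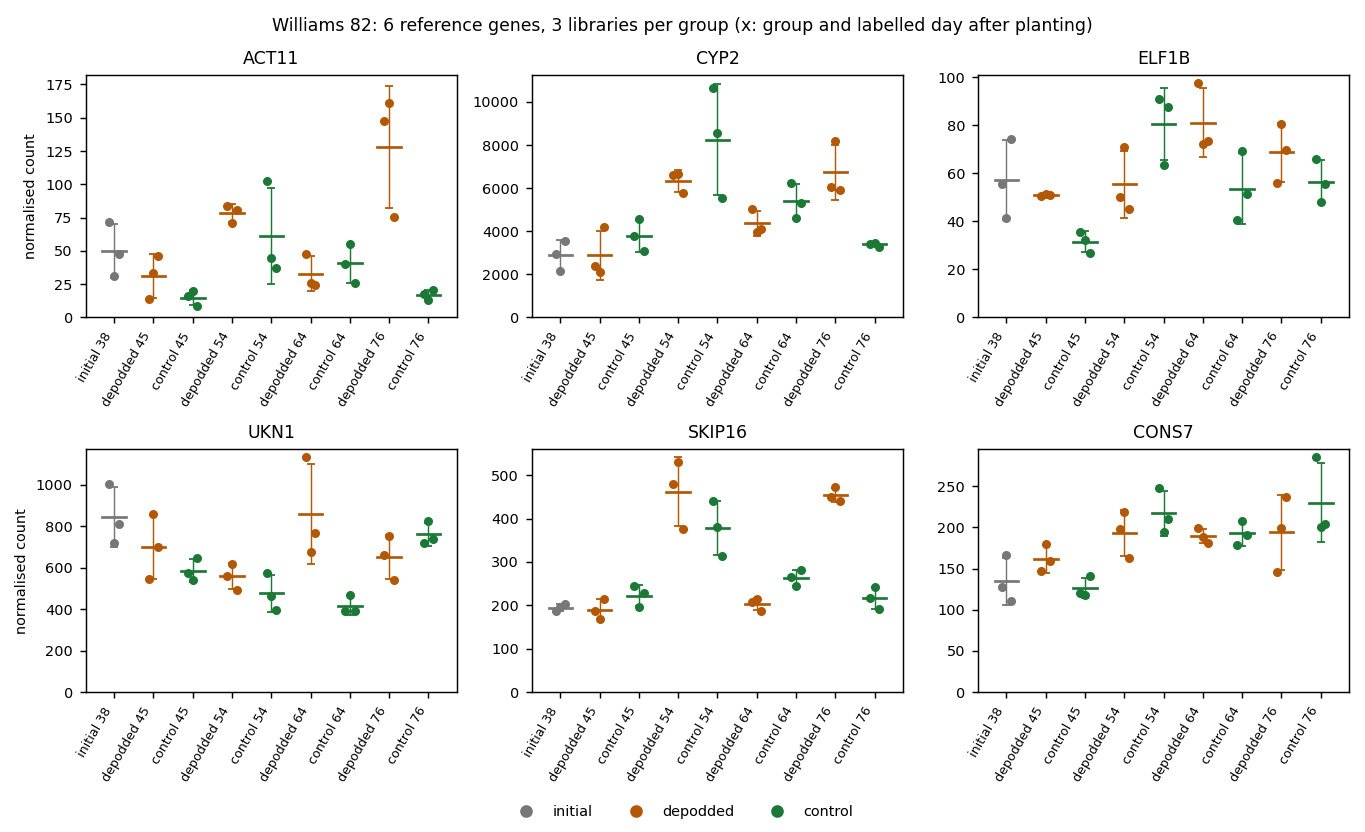
Normalised counts of each gene in Williams 82, by group and labelled day after planting; points are the 3 libraries, bars the mean and whiskers the SD. SKIP16 is high at day 54 and in the depodded leaves labelled day 76 (454 ± 15.8), and ACT11 in those labelled day 76 (128 ± 46.1) is above every control library of that day.

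**Figure D3:**
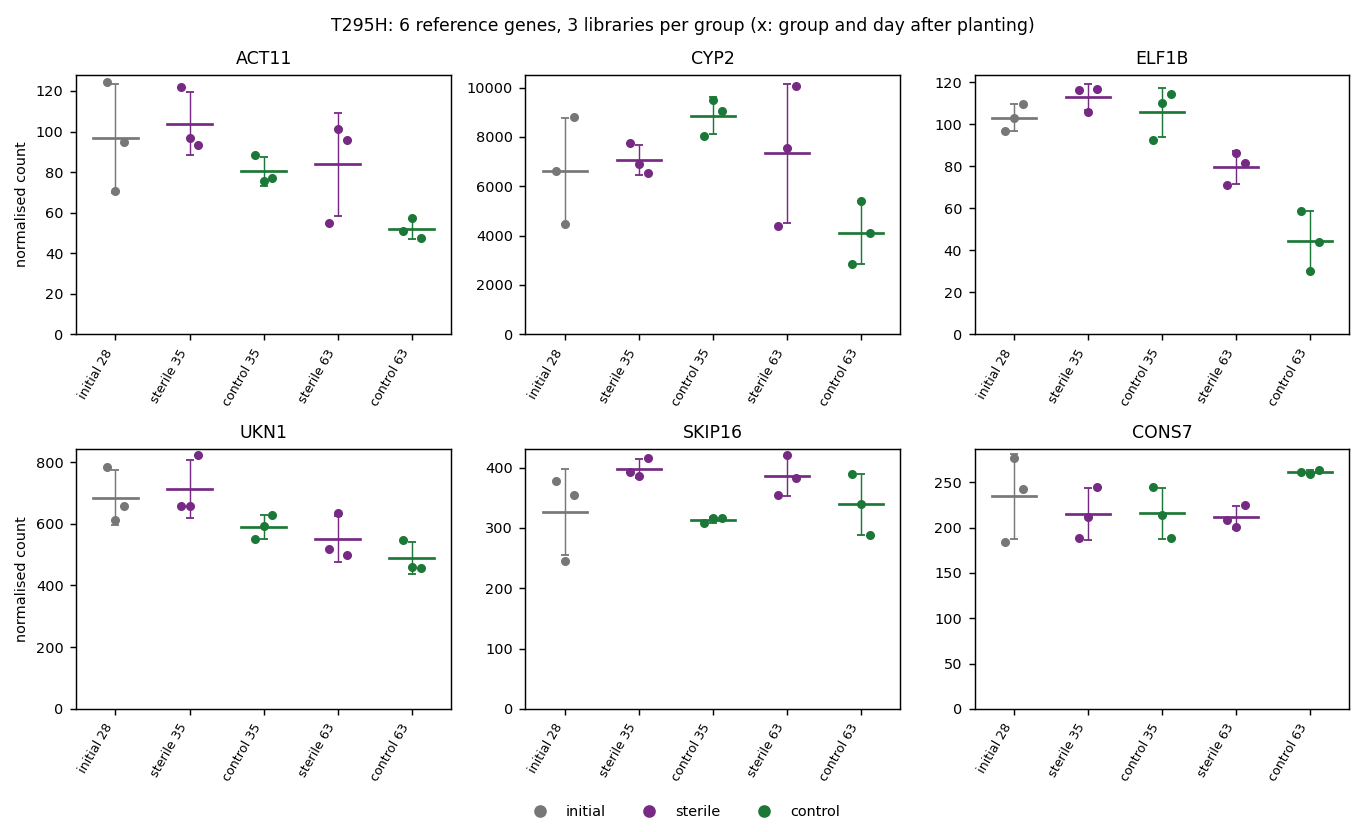
Normalised counts of each gene in T295H, by group and day after planting; points are the 3 libraries, bars the mean and whiskers the SD. ELF1B is lowest in controls of day 63 (44.3 ± 14.3), while the group means of SKIP16 and CONS7 stay within 1.27-fold and 1.24-fold.

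Depodding left no called change in any of the 6 genes at days 45 and 54, and called changes followed at the later labels. At day 45, 0 of the 6 members passed the threshold of an adjusted p under 0.05, against 0.0103% of all tested genes. ELF1B had the lowest unadjusted p of the 6 there, 0.014 (log2 change 0.69 with SE 0.26, adjusted p 0.376), the only one under 0.05. ELF1B and CONS7 were higher without overlap, as 6.81% of genes were. ACT11 differed by 0.93 (95% interval -0.015 to 1.883), an interval that reached past a doubling. At day 54, 0 of 6 passed, against 0.88% of genes, with log2 differences from -0.54 for ELF1B, the only member with an unadjusted p under 0.05 (0.047), to 0.497 for ACT11. DESeq2 and edgeR, the count-based tests, also called 0 members on both days.

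In depodded leaves labelled day 64, UKN1 was higher than in controls of day 64, at 859 ± 242 against 416 ± 44.7 (2.06-fold, log2 change 1.01 with SE 0.21, adjusted p 0.000621), without overlap. It was the only 1 of 6 members called, against 35.8% of genes called and 19.1% called higher. UKN1 and ELF1B were higher without overlap, as 27.5% of genes were, and SKIP16 lower, as 26.2% were. SKIP16 differed by -0.37 (SE 0.16, adjusted p 0.0803), and passed only where libraries were scaled to their totals (-0.50, adjusted p 0.0261). ELF1B differed by 0.61 (SE 0.26, adjusted p 0.0721) and passed without control replicate 2 of day 64 (0.81, adjusted p 0.034). CONS7 differed by -0.02, with a 95% interval of -0.43 to 0.389.

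In depodded leaves labelled day 76, ACT11, CYP2 and SKIP16 were higher than in controls of day 76, all without overlap. ACT11 stood at 128 ± 46.1 against 16.8 ± 3.72 (7.63-fold, log2 change 2.81 with SE 0.46, adjusted p 3.85e-05), the largest change of a member in any comparison. CYP2 stood at 6729 ± 1276 against 3392 ± 95 (1.98-fold, log2 change 0.97 with SE 0.27, adjusted p 0.00548). SKIP16 stood at 454 ± 15.8 against 216 ± 26 (2.1-fold, log2 change 1.07 with SE 0.16, adjusted p 1.68e-05). These 3 of 6 members compare with 46.3% of all tested genes called, 24.2% called higher and 29.3% higher without overlap, so the share of members called in either direction was near that of genes in general. UKN1 and CONS7 differed by -0.23 and -0.25, and ELF1B by 0.27, none of which passed.

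The late calls depended on the label. Read by title number, ACT11 (128 ± 46.1 against 40.5 ± 14.9, log2 change 1.63, adjusted p 0.0226), UKN1 (653 ± 106 against 416 ± 44.7, log2 change 0.64, adjusted p 0.0428) and SKIP16 (454 ± 15.8 against 263 ± 18.4, log2 change 0.79, adjusted p 0.00316) were higher in depodded leaves of day 64. These 3 of 6 members compare with 13% of genes called, and 7.08% called higher. At day 76, 0 of 6 then passed, against 28.3% of genes, with ACT11 at a log2 change of 0.88 (95% interval -0.07 to 1.83) and SKIP16 at -0.08 (-0.42 to 0.25). ACT11, CYP2 and ELF1B were nevertheless higher there without overlap, and CONS7 lower. The 3 members called at day 64 by title number were also free of overlap. The share of all genes without overlap was not computed by title number. UKN1 was higher in depodded leaves of day 64 under both readings. By label, its effect there was not called different from that at day 45 (difference 0.78, adjusted p 0.0769), though it was without depodded replicate 2 of day 45 (0.0408) or depodded replicate 2 labelled day 64 (0.049) and with DESeq2 (0.0487). The limma test of that difference called 14.2% of all tested genes. CONS7 passed in neither comparison of depodded with control leaves under either reading.

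In T295H, sterile and control leaves of day 35 showed no called difference in these genes, and at day 63 CYP2 and ELF1B were higher in sterile leaves. A limma test of the difference between the effects at day 63 and day 35 called 27.1% of all tested genes. It called neither gene (difference 1.13, adjusted p 0.0747 for CYP2, and 0.77, adjusted p 0.0805 for ELF1B). That of CYP2 passed without control replicate 2 (adjusted p 0.0444) or sterile replicate 1 of day 63 (0.0212) and with DESeq2 (0.0291), and that of ELF1B without control replicate 1 of day 63 (0.023) and with edgeR (0.0499). At day 35, 0 of 6 passed, against 0.177% of all tested genes, the smallest unadjusted p being 0.058 for SKIP16, and DESeq2 and edgeR also called 0 of 6. The libraries of ACT11, UKN1 and SKIP16 were nevertheless all higher in sterile leaves, as in 15% of genes, and those of CYP2 all lower, as in 13.1%. At day 63, 2 of 6 passed, both higher, against 50.3% of genes called and 26.6% called higher. ELF1B, higher without overlap as 30.1% of genes were, stood at 79.6 ± 7.9 against 44.3 ± 14.3 (1.8-fold, log2 change 0.88 with SE 0.22, adjusted p 0.00417). CYP2 stood at 7329.5 ± 2832 against 4114 ± 1285 (log2 change 0.80 with SE 0.32, adjusted p 0.0463). Its call was lost without control replicate 1 (0.56, adjusted p 0.197) or 3 (0.83, adjusted p 0.0813) and without sterile replicate 2 (0.74, adjusted p 0.113) or 3 (0.53, adjusted p 0.2), with no filter on low values (adjusted p 0.0552) and in a fit of only these groups (0.114). ACT11 lay just outside the threshold, with a log2 difference of 0.64 (SE 0.26, adjusted p 0.0504), and passed without sterile replicate 1 (0.92, adjusted p 0.00842) and with both count-based tests. UKN1 and SKIP16 differed by 0.17 and 0.195 without passing. CONS7 was lower in every sterile library, as 29.9% of genes were, and its difference of -0.31 had an interval of -0.667 to 0.052.

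The controls were also compared over time. In Williams 82 the control leaves of each day were compared with the initial leaves, and these comparisons share the initial libraries. At day 45, 1 of 6 members was called and it was lower, against 5.79% of genes called and 2.8% called lower: ACT11 (14.8 ± 5.47 against 50.1 ± 20.2, log2 change -1.68 with SE 0.46, adjusted p 0.0329). That call was lost without initial replicate 1 (adjusted p 0.188) or 3 (0.0683), without control replicate 1 (0.0814), 2 (0.0559) or 3 (0.111), with edgeR (0.0521) and in a fit of only these groups (0.22), with log2 changes from -1.91 to -1.38 among the fits that left out a library. ACT11, ELF1B and UKN1 lay below the initial leaves without overlap, as 12% of genes did. ELF1B differed by -0.81 (adjusted p 0.0647) and passed without initial replicate 2 (-1.02, adjusted p 0.0172).

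At day 54, 3 of 6 members rose and 1 fell in Williams 82 controls, against 41.9% of genes called, 20.3% higher and 21.5% lower. All 4 changes were free of overlap, which held for 22.9% of genes in the higher and 24.1% in the lower direction. CYP2 reached 8254 ± 2563 against 2884 ± 709 in initial leaves (2.86-fold, log2 change 1.497 with SE 0.27, adjusted p 0.000163). SKIP16 was at 378 ± 62.5 against 195 ± 8.12 (log2 change 0.94 with SE 0.16, adjusted p 0.000101) and CONS7 at 217 ± 27.5 against 135 ± 28.8 (log2 change 0.70 with SE 0.20, adjusted p 0.00709). UKN1 was lower, at 478 ± 89.2 against 845 ± 145 (log2 change -0.82 with SE 0.21, adjusted p 0.00293). The within-library ratio of CYP2 to UKN1 had its lowest group mean in initial leaves and its highest in these controls, a 5.01-fold difference. ELF1B differed by 0.51 (adjusted p 0.118) and passed without initial replicate 3 (0.72, adjusted p 0.0479).

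The same 4 members were called at day 64 in the same directions, against 44.5% of genes called, 21.1% higher and 23.4% lower. They were again free of overlap, as 24.1% of genes were in the higher and 26.1% in the lower direction. CYP2 was at a log2 change of 0.92 (SE 0.27, adjusted p 0.0086), UKN1 at -1.01 (SE 0.21, adjusted p 0.00045), SKIP16 at 0.43 (SE 0.16, adjusted p 0.035) and CONS7 at 0.53 (SE 0.20, adjusted p 0.0326). The last pair was close to the threshold. SKIP16 lost its call without initial replicate 1 (adjusted p 0.0897), 2 (0.0604) or 3 (0.0513) and without control replicate 1 (0.0801) or 3 (0.107), and CONS7 without initial replicate 1 (0.0819) or 3 (0.144) and without control replicate 2 (0.0981) or 3 (0.0664). In a fit of only these groups 1 of 6 was called, UKN1.

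At day 76, 2 of 6 members were called, 1 higher and 1 lower, against 43.8% of genes called, 20.1% higher and 23.7% lower. Both were free of overlap, as 21.8% of genes were in the higher and 24.3% in the lower direction. ACT11 was lower, at 16.8 ± 3.72 against 50.1 ± 20.2 (log2 change -1.47 with SE 0.46, adjusted p 0.0122), a call lost without initial replicate 1 (-1.18, adjusted p 0.0718) or control replicate 2 (-1.30, adjusted p 0.0501). CONS7 was higher, at 230.2 ± 48.3 against 135 ± 28.8 (1.71-fold, log2 change 0.77 with SE 0.20, adjusted p 0.00292). CYP2, ELF1B, UKN1 and SKIP16 differed by 0.26, 0.01, -0.14 and 0.15, with 95% intervals between -1 and 1. CONS7 was thus called higher than in initial leaves in the controls of days 54, 64 and 76, and in fits of only the compared groups none of these calls held (adjusted p 0.075, 0.117 and 0.0743).

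In T295H controls, 0 of 6 members passed at day 35, against 11.6% of genes called, and 3 were lower at day 63, against 63.4% of genes called and 32.1% called lower. All 3 were free of overlap, as 31.5% of genes were in the lower direction. The lowest unadjusted p at day 35 was 0.16, for CYP2 (log2 difference 0.47), and both count-based tests called 0. At day 63 ELF1B was at 44.3 ± 14.3 against 103 ± 6.41 (log2 change -1.25 with SE 0.22, adjusted p 0.000155). ACT11 was at 51.8 ± 4.96 against 96.6 ± 26.8 (log2 change -0.85 with SE 0.26, adjusted p 0.00914) and UKN1 at 488 ± 51.7 against 685 ± 89.9 (log2 change -0.48 with SE 0.15, adjusted p 0.0117). Both of these calls were lost without initial replicate 1 (adjusted p 0.0502 for ACT11 and 0.0562 for UKN1). CYP2 differed by -0.68 (adjusted p 0.072) and passed without initial replicate 2 (-0.94, adjusted p 0.0237), the library that stood apart, or without control replicate 2 (-0.90, adjusted p 0.0343). SKIP16 and CONS7 differed by 0.07 and 0.17, with intervals of -0.285 to 0.428 and -0.184 to 0.535.

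Age comparisons were the ones most touched by scaling. With libraries scaled to their totals in place of the authors' normalisation, the median log2 change of all tested genes between controls and initial leaves stood at 0.545 at day 76 in Williams 82, against 0.039 otherwise, and at 0.544 at day 63 in T295H, against 0.017. ACT11 then missed the threshold at day 76 (-0.968, adjusted p 0.059), while CYP2 (0.782, adjusted p 0.0111) and SKIP16 (0.661, adjusted p 0.00258) passed it, only a little above that median. In T295H at day 63, ACT11 (-0.321, adjusted p 0.393) and UKN1 (0.057, adjusted p 0.842) missed it and lay below the median of all genes, and CONS7 passed (0.715, adjusted p 0.00431). At day 54 in Williams 82, where the median was 0.41, UKN1 missed it (-0.433, adjusted p 0.0674) and ELF1B passed (0.897, adjusted p 0.00669). Normalised totals of the T295H initial libraries, 10750344 to 17612904, were all above those of the other T295H libraries, and their part in these age differences was not tested. UKN1 took its smallest share of a T295H library total in initial replicate 2, the library that stood apart. It had 190 of 5471456 recovered counts there, against 632 of 9271355 and 612 of 9992702 in initial replicates 1 and 3. Scaling to totals without that library was not tested.

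No member had a 95% interval within a doubling in either direction in all 12 comparisons. The log2 changes of CONS7 themselves lay between -0.307 and 0.771. A 95% interval of the log2 change between -1 and 1 was found in 10 of the 12 comparisons for SKIP16 and for CONS7, in 9 for UKN1, 5 for ELF1B, 4 for CYP2 and 2 for ACT11, and by title number CYP2 had 5 and the others the same counts. In depodded against control leaves it held for 3 members at day 45, against 41.4% of all tested genes, for 4 at day 54 against 40.2%, for 3 at the label of day 64 against 23% and for 3 at that of day 76 against 20.7%. By title number it held for 3 at day 64 against 32.4% and for 4 at day 76 against 30.2%. In Williams 82 controls against initial leaves it held for 4 at day 45 against 35.9%, for 0 at day 54 against 21.7%, for 3 at day 64 against 21.4% and for 4 at day 76 against 24.5%. In sterile against control leaves it held for 5 at day 35 against 51.9% and for 3 at day 63 against 26.8%, and in T295H controls against initial leaves for 5 at day 35 against 44.7% and for 3 at day 63 against 21.5%. The counts per member reflect the width of the interval as well as the size of the change. In each Williams 82 comparison the SE was 0.458 for ACT11 and 0.163 for SKIP16. ACT11 missed the bounds even at a log2 change of -0.289 (controls of day 64 against initial leaves, interval -1.237 to 0.66).

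**Figure D4:**
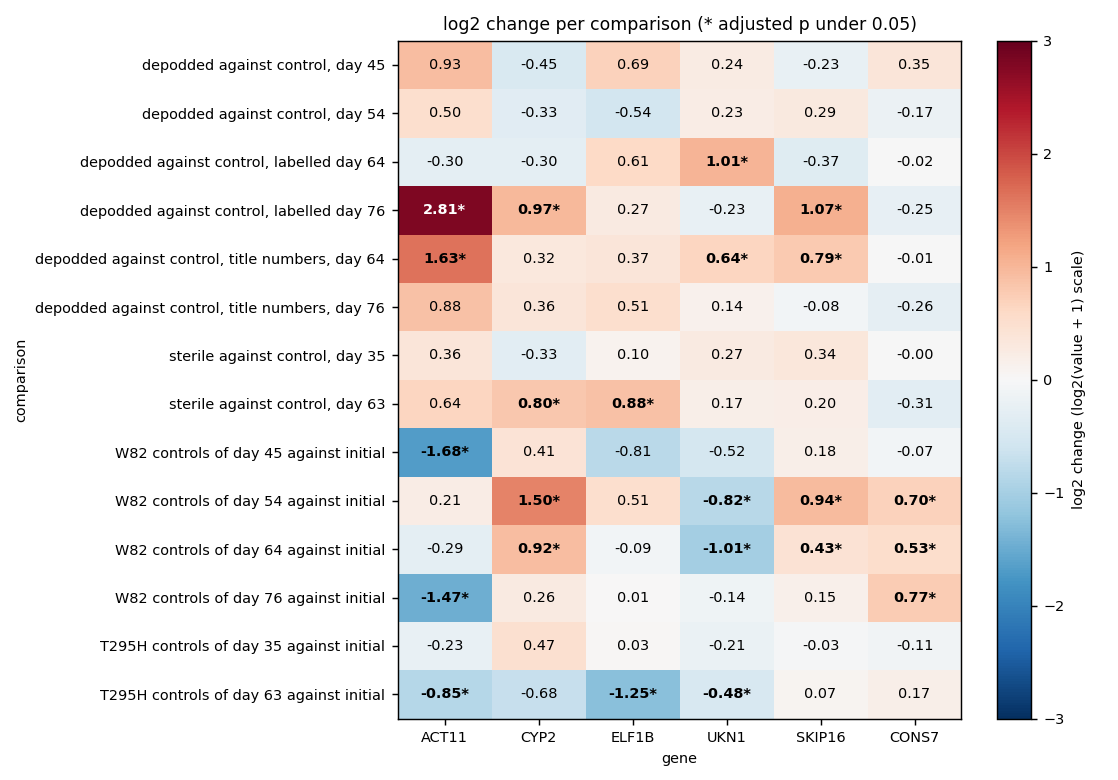
Log2 changes of each gene (columns) in each comparison (rows), on the log2(value + 1) scale; asterisks mark an adjusted p under 0.05. ACT11 holds both the largest rise (2.81, depodded leaves labelled day 76) and the largest fall (-1.68, Williams 82 controls of day 45), and CONS7 is called only in the Williams 82 controls of days 54, 64 and 76.

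Across all groups of a line at once, every member differed somewhere in Williams 82. The moderated F test over the 9 groups passed for 6 of 6 members, against 78.5% of tested genes, with adjusted p-values from 1.81e-07 for SKIP16 to 0.00459 for CONS7. SKIP16 had a larger F than most genes: 5.81% exceeded it, while 57% exceeded that of CONS7 and 52.9% that of ELF1B. Over the 5 groups of T295H, 4 of 6 passed, against 70.5% of genes. ELF1B was called there with an adjusted p of 0.000257 and ACT11 (0.0251), UKN1 (0.0253) and CYP2 (0.0435) less clearly, and SKIP16 (0.225) and CONS7 (0.399) were not called. Scaled to library totals, 4 of 6 passed again but SKIP16 (0.0223) and CONS7 (0.027) were among them, and ACT11 (0.0607) and UKN1 (0.126) were not. Without T295H control replicate 3 of day 63 only 1 of 6 passed, ELF1B, with adjusted p-values of 0.0961 for ACT11, 0.105 for CYP2 and 0.0702 for UKN1, and without control replicate 1 of that day or sterile replicate 1 or 3 of day 35 there were 2.

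Ratios between members within a library do not depend on how libraries are scaled, so they were followed over all 42. For each of the 15 pairs the log2 ratio of recovered counts was taken in every library. In Williams 82 the steadiest pair was CYP2 with SKIP16, whose ratio had an SD of 0.33 over 27 libraries, less than the SD of either gene by itself, 0.60 and 0.52. Both genes were above their initial level in controls of days 54 and 64. The least steady pair was ACT11 with UKN1, with an SD of 1.16 and a 16.1-fold span between its lowest and highest library. Between groups the ratio of ACT11 to UKN1 was highest in depodded leaves labelled day 76, at a mean log2 of -2.41 ± 0.378, and lowest in controls of day 76, at -5.52 ± 0.427, an 8.65-fold difference.

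In T295H the steadiest pair was UKN1 with SKIP16, at an SD of 0.26 over 15 libraries, and the least steady was ELF1B with CONS7, at 0.69. The CYP2 to SKIP16 ratio had an SD of 0.53 there, so the pair that was steadiest in Williams 82 was not in T295H. Averaged over its 5 partners, the SD of a member's ratios in Williams 82 was lowest for SKIP16 (0.60), followed by ELF1B (0.61), CONS7 (0.62) and CYP2 (0.63), with UKN1 at 0.77 and ACT11 at 0.97. In T295H it was lowest for UKN1 (0.37), followed by ACT11 (0.41) and SKIP16 (0.43), and higher for CYP2 (0.52), ELF1B (0.52) and CONS7 (0.53). CONS7, with the smallest SD of its own in T295H, thus had ratios there about as unsteady as those of ELF1B and CYP2. The group mean of CONS7 was highest in controls of day 63, the group in which those of ACT11, CYP2, ELF1B and UKN1 were lowest.

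**Figure D5:**
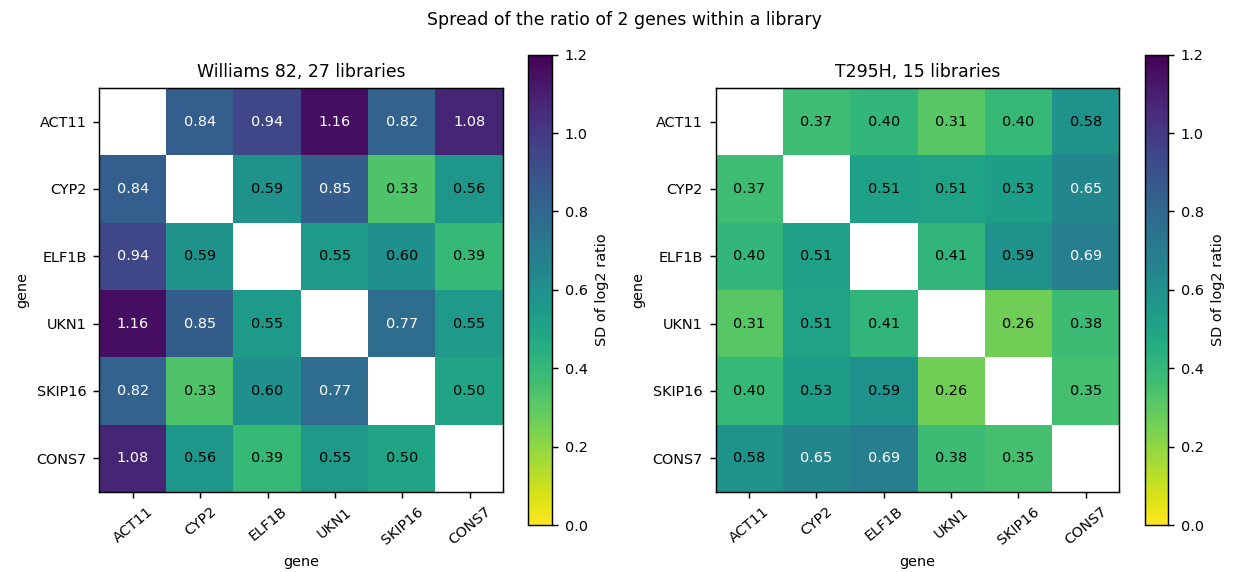
SD of the within-library log2 ratio for each pair of genes, over 27 Williams 82 and 15 T295H libraries. In Williams 82 the row of ACT11 is the darkest (0.82 to 1.16) and the ratio of CYP2 to SKIP16 is the steadiest (0.33); in T295H the steadiest is UKN1 to SKIP16 (0.26).

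The 6 genes did not move as a block. Over the 14 group means of both lines, centred within each line, Pearson's r was 0.77 between CYP2 and SKIP16, 0.76 between ACT11 and SKIP16 and 0.64 between ACT11 and CYP2, while UKN1 ran against SKIP16 (-0.45) and CYP2 (-0.41). These are descriptions over group means that share libraries and scaling. A mean of 100 or more in both lines was reached by 11944 genes, and the 2 of them with the pattern most like each member reached r from 0.89 to 0.97. They were Glyma.02G145500 and Glyma.07G004100 for ACT11, Glyma.07G253100 and Glyma.12G058200 for CYP2, Glyma.20G161600 and Glyma.11G189500 for ELF1B, Glyma.04G162800 and Glyma.01G105500 for UKN1, Glyma.04G252400 and Glyma.04G229300 for SKIP16, and Glyma.08G268900 and Glyma.03G245000 for CONS7.

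Much steadier genes were present in the same leaves. Ranked by the larger of its SDs in the 2 lines among these 11944 genes, Glyma.19G176700 came first, with SDs of 0.13 in Williams 82 and 0.13 in T295H around means of 2372 and 2004.5. Glyma.17G106000 followed with 0.15 and 0.15, and Glyma.11G244100 with 0.14 and 0.16. These genes were picked for their small spread on these libraries, so the values describe them and are no independent evidence of stability. On the same scale 969 genes were steadier than CONS7, 1854 than UKN1, 3838 than SKIP16, 4439 than ELF1B, 4957 than CYP2 and 8970 than ACT11. Counting alone would give CONS7 SDs of about 0.16 in Williams 82 and 0.14 in T295H, above the whole SDs of Glyma.19G176700. ACT11 and ELF1B lay below the mean required of these 11944 genes in both lines and were added for this ranking. Both were thus ranked against genes with higher means, and counting adds more to the SD of a gene with few counts.

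A list of 6 further gene IDs, recalled from soybean quantitative PCR work and not annotated in the sources used here, was counted in the same way. None of the 6 was called at day 45 or 54 of depodding or at day 35 of sterility, where limma called 0.0103%, 0.88% and 0.177% of all tested genes. In depodded leaves labelled day 64, 2 were higher and 1 lower, against 35.8% of all genes called, and in those labelled day 76, 3 were higher and 2 lower, against 46.3% (median log2 change 0.715, against 0.047 for all tested genes). By title number 2 were higher and 0 lower at day 64, against 13%, and 1 was higher and 1 lower at day 76, against 28.3%. In Williams 82 controls against initial leaves, 0 were higher and 1 lower at day 45, against 5.79%, 3 were higher and 2 lower at day 54, against 41.9%, and again at day 64, against 44.5%, and 2 were higher and 1 lower at day 76, against 43.8%. In sterile leaves of day 63, 3 were higher and 1 lower, against 50.3%. In T295H controls against initial leaves, 0 were higher and 1 lower at day 35, against 11.6%, and 1 was higher and 5 were lower at day 63, against 63.4% (median -0.68, against 0.017 for all tested genes). In every other comparison the median of the list lay nearer to no change, from -0.483 (Williams 82 controls of day 45) to 0.422 (those of day 64).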

How the data were processed

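The members and lists were chosen with earlier results of these data known. The authors deposited 1 table per line of a signal per gene and library. Per the submitters' processing notes, Bowtie2 and DESeq2 were used; their versions and roles, the genome build, the annotation and the strand setting were not stated there. Every column was found to be built from 1 smallest step, as counts divided by a size factor are, and after division by that step 100% of values lay within 0.01 of a whole count, and 98.9% (Williams 82) and 99% (T295H) of counts above 0 were even, so counting error was computed on pairs and covers counting only. The transcript ending of T295H IDs was removed. 0 of 39557 IDs matched the 59048 genes of RefSeq Glycine_max_v4.0. RefSeq gives the symbol SKIP16 to a gene on chromosome 11, while Glyma.12G051100 lies on chromosome 12 by its ID. The functions given for ACT11, CYP2, ELF1B and SKIP16 thus rest on their names alone.

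All groups of a line entered 1 fit of limma 3.58.1 (R 4.3.3, eBayes with trend) on log2(value + 1), which understates changes of low genes, two-sided, with Benjamini-Hochberg adjustment over the genes whose mean reached 10, and a threshold of 0.05. The test was also run on simulated counts, with independent libraries and a spread set by expression level alone. That setting is simpler than these data, and no conclusion is drawn from it. Replicates may be technical, since the labels name no separate plants, so the p-values reflect library-to-library spread alone; the closest pair differed by a chi-square of 3.09 per degree of freedom. Named genes were the 6 members, the 2 most alike to each and the 3 steadiest. Alternatives were pseudocount 5, filters of 0 and 50, library totals, TMM, edgeR 4.0.16 and DESeq2 1.42.0 on recovered counts, a replicate block, only the compared groups, title numbers and each library left out. Interaction tests were added after seeing the data.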

Additional observations from a re-analysis of the deposited data

Results flagged for a closer look

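The depodding effect at the label of day 76 differed from that at day 45 for 3 members, by a test of the difference itself in the limma fit, which called 32% of all tested genes. ACT11 was more positive by 1.87 on the log2 scale (SE 0.65, adjusted p 0.0307), from effects of 2.81 at the label of day 76 and 0.93 at day 45. CYP2 was more positive by 1.42 (SE 0.38, adjusted p 0.00712), with effects of 0.97 and -0.45. SKIP16 was more positive by 1.304 (SE 0.23, adjusted p 0.000239), with effects of 1.07 and -0.23. By the title numbers none of these passed: ACT11 differed by -0.05 (adjusted p 0.969), CYP2 by 0.80 (0.157) and SKIP16 by 0.15 (0.718). That of ACT11 was also lost, at adjusted p-values of 0.0576 to 0.0968, without depodded replicate 1 of day 45, depodded replicate 1 or 2 labelled day 76, control replicate 1 or 2 of day 45, or control replicate 2 of day 76. By title number, the depodding effect on SKIP16 at day 64 did differ from that at day 45 in the limma fit (1.02, adjusted p 0.0391).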

How the results depend on the processing

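No pairing of replicate numbers is given by the labels, and same-numbered libraries did not deviate together (correlations of -0.26 to 0.25 within each comparison). Under a replicate block no member's call changed in any comparison, with 1 and 3 members called at the labels of days 64 and 76, 2 for sterility at day 63 and 3 for T295H ageing at day 63.
Title numbers gave 3 and 0 members at days 64 and 76, where the labels gave 1 and 3; ACT11 (1.63, against -0.30 by label) and SKIP16 (0.79, against -0.37) turned at day 64, SKIP16 at day 76 (-0.084, against 1.07), and among effects relative to day 45 SKIP16 at day 64 (1.02, against -0.14) and ACT11 at day 76 (-0.054, against 1.87). Scaling to library totals gave 2 members at the label of day 64 and an SD of 0.46 for SKIP16 in T295H (0.22 otherwise), and turned UKN1 in T295H controls of day 63 (0.057, against -0.48), where the median of all genes moved to 0.544. Fits restricted to the groups compared gave 0, 1 and 1 members in Williams 82 controls of days 45, 64 and 76 and 1 for sterility at day 63, and lost CONS7 at day 54 (adjusted p 0.075) and UKN1 in T295H controls of day 63 (0.0531); they hold fewer libraries. EdgeR called 0 at day 45 of ageing, and no filter gave 1 for sterility at day 63. For the alternatives other than title numbers, the share of all genes called is not given here. Changes in these counts are therefore not read as particular to the 6 genes. Without the controls of day 63, the SD of ELF1B in T295H was 0.23 (0.56 otherwise). On library totals, the SD of 0.46 for SKIP16 and the turn of UKN1 both include T295H initial replicate 2. Each of these genes took its smallest share of a T295H library total in that library.
Leaving out 1 library gave 1 to 2 members at the label of day 64, 0 to 2, 4 to 5, 2 to 3 and 1 to 2 for Williams 82 controls of days 45, 54, 64 and 76, 1 to 3 for sterility and 1 to 4 for ageing at day 63 of T295H, 1 to 4 over all its groups, and 6 over all groups of Williams 82. Counts per library limit ACT11 and ELF1B most.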
